A study of Mus musculus with 2 samples.

Results

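The nuclei described here are fibroadipogenic progenitor nuclei with high Postn from ischaemic mouse muscle, 630 of the 23616 nuclei kept from 2 single-nucleus RNA-seq libraries. A nucleus was a droplet barcode with at least 2000 unique molecular identifiers (UMIs, the count of captured RNA molecules) of which at most 5% came from mitochondrial genes. It was counted as fibroadipogenic when it held at least 1 UMI of Pdgfra, at least 4 UMIs of Pdgfra, Abca8a, Bmper and Ebf2 together, at most 1 UMI of Ptprc and Pax7 together, and under 1% of its UMIs from the fibre genes Ttn, Neb, Trdn and Dmd. It was counted as high Postn when it also held at least 2 UMIs of Postn. The rule thus used measured values, so the levels of these genes in the chosen nuclei are a description and not a result. The library labelled AHRfl/fl gave 523 such nuclei, 3.08% of its 16986 nuclei (95% exact Clopper-Pearson interval 2.82 to 3.35). The library labelled AHRmKO gave 107, 1.61% of its 6630 nuclei (1.32 to 1.95).

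Muscle came from the tibialis anterior, which lifts the foot. The mice were male, 16 to 20 weeks old and had chronic kidney disease, and the muscle was taken on day 5 after ligation of the femoral artery. Both labels give the same cross, of AHRtm3.1Bra/J mice, whose Ahr gene carries recombination sites, with Tg(ACTA1-cre/Esr1*)2Kesr/J mice, whose Cre recombinase is fused to a modified oestrogen receptor and driven by the skeletal actin promoter. That promoter is active in muscle fibres, so the fibroadipogenic nuclei of the AHRmKO library come from a muscle in which other cells are the ones targeted. Whether the AHRfl/fl mice carried the Cre, how recombination was induced and how many animals were behind each library are not given in the sources used here. There was 1 library per genotype, so no difference between the libraries has a replicate check, no p-value is given, and every interval covers counting error only.

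Fibroadipogenic progenitors are the Pdgfra-positive mesenchymal cells that lie between muscle fibres. After injury they divide, lay down a provisional matrix, and signal to satellite cells, the muscle stem cells. They can also turn into matrix-producing fibroblasts or fat cells. Postn encodes periostin, a matricellular protein that binds integrins and collagen, and is known as a mark of fibroblasts activated by tissue damage. Nox4 encodes an NADPH oxidase that makes hydrogen peroxide, and Slit3 a secreted guidance ligand of Robo receptors.

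The libraries held 151788328 UMIs over 2428718 barcodes (AHRfl/fl) and 113737134 UMIs over 2502183 barcodes (AHRmKO). High Postn nuclei had a median of 4278 UMIs and 2289 genes in the AHRfl/fl library and of 5374 UMIs and 2541 genes in the AHRmKO library. Their mitochondrial share had a median of 0.722% and 1.78%. A few deep nuclei carried much of the AHRmKO sum: 27 of its 107 high Postn nuclei held over 10000 UMIs and gave 54.9% of the UMIs, against 9 of 523 nuclei and 4.36% in the AHRfl/fl library. Values without these nuclei are therefore given beside the ratios they move by over 1.5 times or take across the 2-fold limit. Of all nuclei, 30 had a barcode found in both libraries, and none of the high Postn nuclei did. Barcodes of 200 to under 500 UMIs, taken as a measure of free RNA, held 21.9% of the AHRfl/fl UMIs and 42.0% of the AHRmKO UMIs.

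The cell type label was set beside markers that the rule did not use. These were chosen with earlier results of these data known, so they are no independent check. Levels are given as CPM, the UMIs of a gene summed over a set of nuclei and scaled to 1000000 UMIs of that set, with the AHRfl/fl library first. High Postn nuclei were set beside fibroadipogenic nuclei with 0 or 1 UMI of Postn (low Postn nuclei, 437 and 262) and beside the nuclei that the rule did not count as fibroadipogenic (16026 and 6261). Slit3 stood at 3451 and 4182 CPM in high Postn nuclei, 3329 and 3238 CPM in low Postn nuclei and 160 and 109 CPM in the nuclei that were not fibroadipogenic. Nox4 stood at 2031 and 966 CPM, 1567 and 683 CPM, and 87.5 and 30.8 CPM. The proteoglycan gene Dcn stood at 925 and 467 CPM, 985 and 529 CPM, and 89.9 and 16.4 CPM. These markers were thus far above the nuclei outside the fibroadipogenic group, and within 2-fold of the low Postn nuclei. Of the genes the rule used, Pdgfra stood at 893 and 799 CPM against 971 and 939 CPM in low Postn nuclei and 31.8 and 14.6 CPM outside the group, and Postn at 1573 and 788 CPM against 87.3 and 38.1 CPM and 88.4 and 18.8 CPM.

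The genes highest against the nuclei outside the fibroadipogenic group marked low Postn nuclei too. Itgbl1, an integrin beta-like secreted protein, stood at 749 and 851 CPM in high Postn and 646 and 660 CPM in low Postn nuclei. Bmp5, a bone morphogenetic protein, stood at 545 and 354 CPM against 531 and 346 CPM, and Aldh1a2, which makes retinoic acid, at 465 and 462 CPM against 522 and 568 CPM. These are therefore genes of fibroadipogenic nuclei with and without Postn. In the AHRmKO library Pcsk5, a proprotein convertase, stood at 729 CPM against 336 CPM in low Postn nuclei, and Cyp7b1, an oxysterol hydroxylase, at 801 against 311 CPM, while in the AHRfl/fl library they stood at 645 against 525 CPM and 376 against 320 CPM. Scn7a, Pde11a, Nova1, Slc6a7, Ntf3, Lmx1a, Tnfaip6 and Adamtsl3 completed the 15 named by this rule with Nox4 and Slit3. RNA of fibres and macrophages was present at a low level. Adult myofibre markers summed to 1630 and 232 CPM, which was 13% and 7.25% of their level in the barcodes of 200 to under 500 UMIs. Macrophage or monocyte markers summed to 1002 and 149 CPM, with Cx3cr1 at 0 in the AHRmKO nuclei. Without Ptprc, which the rule used, they stood at 16.0% and 10.2% of their level in those barcodes. Pericyte or smooth muscle markers summed to 660 and 1031 CPM. They summed to 604 and 602 CPM in low Postn nuclei and to 710 and 541 CPM outside the group. Thinned to 2000 UMIs, 5 or more of their UMIs were held by 6.12% and 13.1% of high and 3.89% and 4.20% of low Postn nuclei.

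Postn itself was spread widely among the fibroadipogenic nuclei. In the AHRfl/fl library 282 of 960 fibroadipogenic nuclei held no Postn UMI, 155 held 1, 120 held 2, 77 held 3, 163 held 4 to 7, 102 held 8 to 15 and 61 held 16 or more, with a maximum of 53. In the AHRmKO library 216 of 369 held none, 46 held 1, 32 held 2, 16 held 3, 41 held 4 to 7, 8 held 8 to 15 and 10 held 16 or more, with a maximum of 52. The limit of the rule therefore cut through a continuous range: 120 and 32 nuclei lay just inside it with 2 UMIs, and 155 and 46 just outside it with 1.

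High Postn nuclei made up 54.5% (51.3 to 57.7) of the fibroadipogenic nuclei of the AHRfl/fl library and 29.0% (24.4 to 33.9) of those of the AHRmKO library. When every nucleus was thinned to 2000 UMIs the shares were 36.8% (33.7 to 39.9) and 14.9% (11.4 to 19.0). The share was lower in the AHRmKO library at both depths, and the counting intervals did not overlap. The levels of free Postn RNA went the same way, at 198 CPM in the barcodes of 200 to under 500 UMIs of the AHRfl/fl library and 36.9 CPM in those of the AHRmKO library. Leukocyte nuclei, which should lack the gene, held a Postn UMI in 9.0% and 1.3% of cases when thinned to 2000 UMIs (14.8% and 2.3% unthinned, at medians of 3314 and 4064 UMIs), against 57.4% (54.2 to 60.5) and 31.2% (26.5 to 36.2) of fibroadipogenic nuclei thinned to the same depth. The part of free RNA in the difference between the libraries was not tested.

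**Figure D1:**
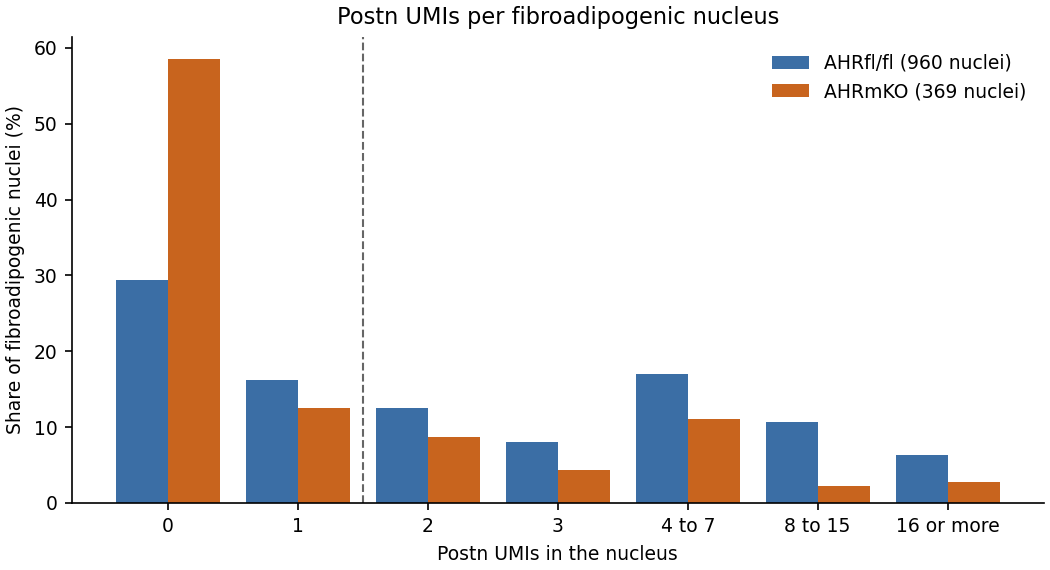
Distribution of Postn UMIs per fibroadipogenic nucleus in the 2 libraries, as a share of that library's fibroadipogenic nuclei in each class of Postn UMIs. Nuclei with 2 or more UMIs are the high Postn nuclei, 54.5% in the AHRfl/fl library and 29.0% in the AHRmKO library.

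Postn lies on chromosome 3 (54361109 to 54391037, plus strand, GRCm38). The 250 bases before its second listed start in RefSeq (GRCm38.p6) are shown because the rule turns on this gene. Capitals mark the motif TATAAA, which 14.3% of 27025 mouse genes hold in windows of this kind on either strand.
Postn, chr3:54360857-54361106, plus strand: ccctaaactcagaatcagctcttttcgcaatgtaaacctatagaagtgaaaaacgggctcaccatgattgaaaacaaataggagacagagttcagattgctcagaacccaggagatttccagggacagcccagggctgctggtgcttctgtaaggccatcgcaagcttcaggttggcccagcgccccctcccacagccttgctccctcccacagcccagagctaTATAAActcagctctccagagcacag

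Few genes differed 2-fold or more, in the same direction, between high and low Postn nuclei in both libraries. Genes past 2-fold in only 1 library are not counted here. Since Postn chose the nuclei, these differences are a description. Of 6531 genes with a mean of at least 20 CPM in each library, 10 (0.153%) were 2-fold or more higher in high Postn nuclei in both libraries and 17 (0.26%) were 2-fold or more lower in both. Log2 ratios were computed with 0.5 CPM added to each level, which understates differences of low genes. The 10 higher genes were Postn, Fbn2, Ccn4, Bmpr1b, Col8a1, Slc20a1, Ptn, Gucy1b1, Gm26512 and Ston2.

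Of 20 collagens tested Col8a1 was 2-fold higher in both libraries, and of 32 matrix glycoprotein and elastic fibre genes Fbn2, against 0.153% of all genes. Col8a1, a short-chain network collagen, stood at 1704 CPM in high Postn against 780 CPM in low Postn nuclei of the AHRfl/fl library (log2 ratio 1.13) and at 1785 against 298 CPM in the AHRmKO library (2.58). Fbn2, a microfibril fibrillin, had log2 ratios of 1.78 and 1.49, and Ccn4, a matricellular protein of the Wnt response, of 1.37 and 1.90. Col23a1, a transmembrane collagen (0.94 and 1.05), Ltbp2, which binds microfibrils (0.88 and 1.08), and Aspn, a small proteoglycan that binds collagen (0.84 and 1.53), were higher in both libraries too, though under 2-fold in 1 of them. So were, by the same naming rule, Ccdc3, Kif26b, P4ha3, Nhsl1, Chsy3 and Igsf3, while Adamts6 (0.94 and 0.77) was under 2-fold in both. Among collagen processing genes (18) and proteases and inhibitors (25) none was 2-fold higher in both. Bmpr1b, a BMP receptor, had ratios of 1.33 and 1.52, and its AHRmKO ratio was 0.19 when the mitochondrial limit was set to 2% and 2.95 without nuclei of over 10000 UMIs. Tnc, the matricellular protein tenascin C, had ratios of 2.84 and 0.79, and its AHRmKO ratio was -0.64 and 3.85 under those settings.

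Of 5 adipocyte markers tested, 2 (Acsl1 and Car3) were 2-fold lower in high Postn nuclei in both libraries, against 0.26% of all genes. The 10 adipocyte markers summed to 409 CPM in high and 674 CPM in low Postn nuclei of the AHRfl/fl library, and to 237 and 1057 CPM in the AHRmKO library. Few nuclei carried these UMIs: thinned to 2000 UMIs, 5 or more adipocyte-marker UMIs were found in 7 of 523 high and 17 of 437 low Postn nuclei of the AHRfl/fl library, and in 2 of 107 and 18 of 262 in the AHRmKO library. The part of these nuclei in the differences below was not tested. C7, a complement component, had log2 ratios of -1.83 and -1.15, Csmd1, a complement regulator, stood at 382 against 1216 CPM (-1.67) and 163 against 1043 CPM (-2.67, or -1.81 without nuclei of over 10000 UMIs), and Fmo2, a monooxygenase, had ratios of -1.39 and -1.41 (-0.86 in the AHRmKO library at a mitochondrial limit of 2%). Acsl1, a fatty acid ligase (-1.19 and -2.96, the latter -1.30 without those nuclei), and Car3, a carbonic anhydrase of fat cells and slow fibres (-1.0 and -4.81, the latter -2.43 without nuclei of over 10000 UMIs), were lower as well. The other genes that were 2-fold lower in both libraries were Trhde, Tshr, Adcy5, Shroom3, Timp3, Fgf13, Rfx2, Igfbp3, Kcnc2, Galnt15, Rgcc and Ppargc1b. In low Postn nuclei Fgf13 (44.5 and 30.7 CPM) lay below its free RNA level (141 and 314 CPM). So did Ppargc1b (46.2 and 54.7 against 51.5 and 107 CPM) and, in the AHRfl/fl library, Igfbp3 (36.0 against 53.0 CPM). AHRmKO high Postn values rested on 2 UMIs for Tshr, 5 for Car3, and 8 each for Shroom3 and Ppargc1b. By fibre markers, low Postn nuclei there held more free RNA (12.5% against 7.25%), and fewer UMIs (median 3188 against 5374). Their part was not tested. Slit2, Prr16, Thrb, Sned1 and Vegfd were lower in both libraries without reaching that size in both, and without the deep nuclei the AHRmKO ratio was -0.32 for Slit2, -0.21 for Prr16 and 0.50 for Thrb.

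Levels of some genes were also set out by the Postn UMIs of the nucleus. These classes were not matched for depth. In nuclei with 0, 1, 2 to 3, and 4 or more Postn UMIs, Col8a1 stood at 736, 855, 817 and 2169 CPM in the AHRfl/fl library and at 291, 328, 935 and 2235 CPM in the AHRmKO library. Col1a1, a chain of the main fibrillar collagen, stood at 639, 919, 1191 and 1873 CPM and at 391, 573, 454 and 659 CPM. Fbn2 stood at 26.7, 24.5, 28.4 and 123 CPM and at 17.2, 27.7, 34.1 and 65.0 CPM. Col8a1, Fbn2 and Col1a1 were thus highest in the nuclei with the most Postn in both libraries. In the AHRfl/fl library Col1a1 rose at each step, while Col8a1 and Fbn2 did not. In the AHRmKO library Col8a1 and Fbn2 rose at each step, while Col1a1 did not and had a narrower range than in the AHRfl/fl library. Slit3 ranged from 3109 to 3709 CPM and from 3072 to 4430 CPM over the classes, so it marked fibroadipogenic nuclei with and without Postn. Nox4 was below 1600 CPM in the lower pair of classes of the AHRfl/fl library (1583 and 1540 CPM) and above 2000 CPM in the upper pair (2065 and 2014 CPM). In the AHRmKO library it stood at 688, 661, 884 and 1010 CPM. Csmd1 was at 1340 CPM without Postn and at 376 CPM with 4 or more UMIs in the AHRfl/fl library, and at 1253 and 199 CPM in the AHRmKO library.

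**Figure D2:**
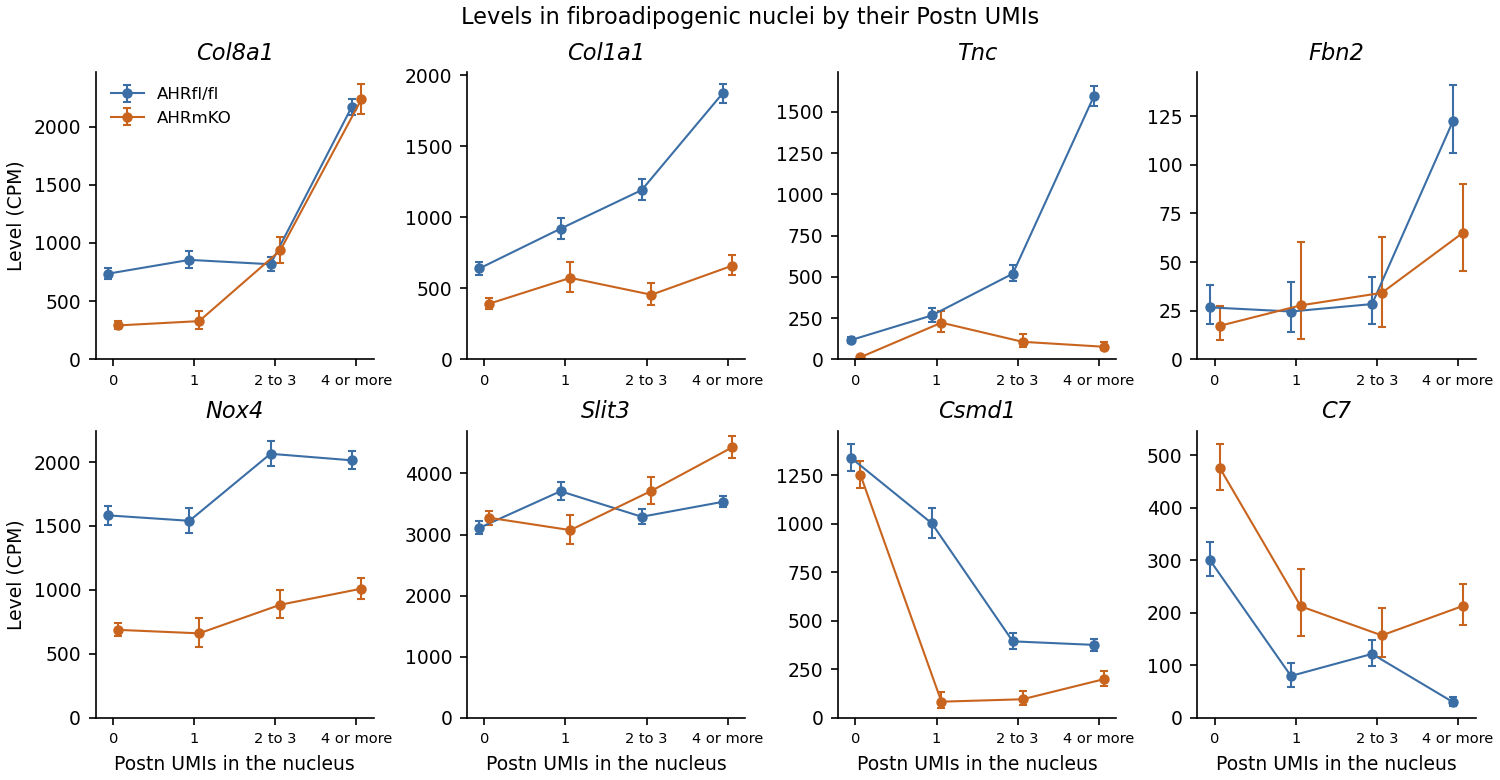
Levels (CPM of summed UMIs) of 8 genes in fibroadipogenic nuclei grouped by their Postn UMIs (0, 1, 2 to 3, 4 or more), for each library; bars are 95% exact Poisson intervals. Col8a1, Fbn2 and Col1a1 were highest in the class with the most Postn in both libraries. Slit3 varied little, and Csmd1 was highest where Postn was at 0.

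The high Postn nuclei were not of 1 kind. They were clustered within each library after the data had been seen, so the leading genes of a cluster are a description and cluster sizes are not compared between libraries. In the AHRfl/fl library the largest cluster, of 121 nuclei, was high in Scara5 (596 CPM, detected in 73.6% of its nuclei against 31.6% of the others) and Sema3c (215 CPM, 33.9% against 11.2%). C7 (230 CPM) was detected in 14% of it and Pi16 (67.9 CPM), known as a mark of adventitial fibroblasts, in 9.09%. A cluster of 112 nuclei was high in Notch3 (288 CPM, 52.7% of nuclei against 20.7%) and the guanylate cyclase subunit Gucy1b1 (117 CPM, 24.1% against 6.08%), and also held the highest Col1a1 (2656 CPM) and Col3a1 (8185 CPM). Its pericyte or smooth muscle markers, Notch3 among them, summed to 1179 CPM against 548 CPM in the other clusters. A cluster of 88 nuclei had high Nox4 (3928 CPM) with Fbn2 (268 CPM) and Ccn2 (803 CPM), a matricellular target of TGF-beta signalling.

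The cluster of 54 nuclei stood out by Tnc. It held 2690 of the 3013 Tnc UMIs of the AHRfl/fl high Postn nuclei, a level of 9600 CPM against 148 CPM in the others. It was also high in Col8a1 (5139 CPM), Col12a1 (1128 CPM), Thbs4 (1096 CPM), Ltbp2 (685 CPM) and Bmpr1b (525 CPM), and had the highest Postn of the clusters (2566 CPM). Col12a1, Thbs4 and Tnc are known from tendon and from matrix under load. The tenocyte markers summed to 1185 CPM in this cluster against 279 CPM in the others. Thbs4 alone gave 1096 and 154 CPM of that, so the remaining tenocyte markers together were lower in the cluster than outside it. In the AHRmKO library no cluster passed 178 CPM of Tnc.

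A further 45 AHRfl/fl nuclei were in cell cycle, with Kif11 at 313 CPM, Top2a at 439 CPM and Mki67 at 349 CPM, and 13 of them had high doublet scores. A cluster of 29 nuclei held fat-cell genes in some of its nuclei, with Pparg at 875 CPM (detected in 37.9% of them), Acsl1 at 650 CPM (27.6%) and Car3 at 745 CPM (13.8%). Another 55 nuclei were led by Kcnd3 (150 CPM against 10.8 CPM in the others) and Stk32a (191 against 21.2 CPM). They also held Itgbl1 (1737 CPM) and Ccn2 (740 CPM), as did the cluster of 88 nuclei (1483 and 803 CPM). The smallest cluster, of 19 nuclei, was led by Mecom (904 CPM, in 26.3% of its nuclei), and carried the macrophage genes Dock2 (447 CPM) and Adgre1 (382 CPM). Its endothelial markers summed to 1156 CPM against 74.4 CPM in the other clusters and its macrophage or monocyte markers to 3272 against 898 CPM, and 15 of its nuclei had high doublet scores.

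In the AHRmKO library a cluster of 34 nuclei was led by Lpl (696 CPM) and the imprinted genes Peg3 (1385 CPM) and Plagl1 (524 CPM). A cluster of 26 held C7 (661 CPM, detected in 26.9%) and the early response gene Klf4 (298 CPM). A cluster of 24 was high in Gucy1a1 (212 CPM), Gucy1b1 (276 CPM), Itga1 (544 CPM) and Col8a1 (3134 CPM). The 15 nuclei in cell cycle had a median of 11629 UMIs, with Diaph3 at 1848 CPM and Top2a at 618 CPM. The smallest cluster, of 8 nuclei, held Sema3c (586 CPM), Pi16 (181 CPM) and Scara5 (1605 CPM).

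**Figure D3:**
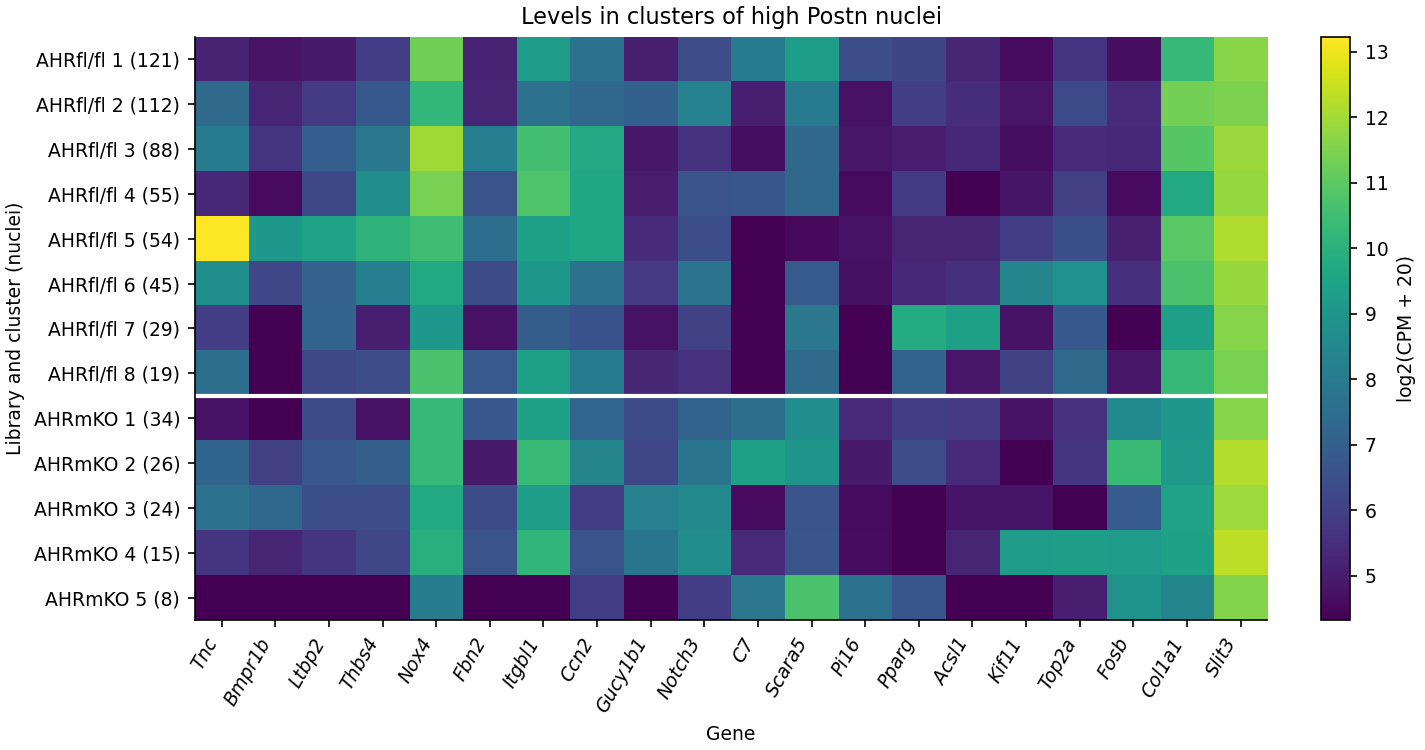
Levels of 20 genes, as log2 of CPM plus 20, in the 8 clusters of AHRfl/fl and the 5 clusters of AHRmKO high Postn nuclei; each row is 1 cluster, with its number of nuclei in parentheses, and each column 1 gene. Tnc is high in 1 AHRfl/fl cluster (9600 CPM), and Fosb is higher in every AHRmKO cluster than in any AHRfl/fl cluster. The clusters are parts of 1 library each and not replicates.

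The libraries were then compared within the high Postn nuclei, to ask how these cells differed between muscle labelled as lacking the aryl hydrocarbon receptor in its fibres and control muscle. Ahr, the gene targeted, held 41 UMIs (16.7 CPM) in the AHRfl/fl and 20 UMIs (23.6 CPM) in the AHRmKO high Postn nuclei, so the log2 ratio was 0.49 (-0.35 to 1.31), or -0.36 without nuclei of over 10000 UMIs. Its level in free RNA was 18.5 and 20.1 CPM. The position of the 3′ reads relative to the deleted exon is not known here, so this does not check the label. Of 7381 genes with a mean of at least 20 CPM, 310 (4.2%) were 2-fold or more higher in the AHRmKO library and 816 (11.1%) were 2-fold or more lower, and the median log2 ratio over all of them was 0.06. Without nuclei of over 10000 UMIs the counts were 614 (8.2%) and 859 (11.5%) of 7490. They were 684 and 948 with nuclei thinned to 2000 UMIs, and 352 and 488 of 7033 with free RNA subtracted, so the shares of all genes given below move with these settings. Much of this was shared with the low Postn nuclei: 137 of the 310 higher genes (44.2%) were also 2-fold higher there, or 37.5% of the 365 higher in low Postn nuclei, and 599 of the 816 lower genes (73.4%), or 78.9% of the 759 lower in low Postn nuclei.

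Early response genes, the transcription factors and feedback regulators that are transcribed within minutes of a stimulus, were higher in the AHRmKO library. Of 16 tested, 13 were 2-fold or more higher and none was 2-fold lower, against 4.2% and 11.1% of all genes. Their median log2 ratio was 1.72. Fosb, a subunit of the AP-1 transcription factor, stood at 14.2 CPM (35 UMIs) in the AHRfl/fl library and at 548 CPM (464 UMIs) in the AHRmKO library, a log2 ratio of 5.22 (4.77 to 5.81). Fos, another AP-1 subunit, stood at 19.1 and 421 CPM (4.42, 4.02 to 4.93). The zinc finger factor Egr1 stood at 50.8 and 444 CPM (3.12, 2.83 to 3.43), and the orphan nuclear receptor Nr4a1 at 9.35 and 117 CPM (3.58, 2.98 to 4.37). The counting intervals of the levels did not overlap for any of these 4 genes, but they were named for their high ratios, so this is no further check. Egr3 (3.28), Egr2 (2.73), Klf4 (1.92), Zfp36, which binds messenger RNA for decay (1.81), Jun (1.63), Junb (1.22), the phosphatase Dusp1 (1.21), Jund (1.08) and Klf6 (1.02) were higher too. Without nuclei of over 10000 UMIs the ratio was 6.02 for Fosb, 5.2 for Fos, 2.31 for Jun and 1.87 for Egr2, and Junb had a ratio of 0.98 with at least 3000 UMIs per nucleus.

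The difference was spread over many nuclei. Fos was detected in 6.9% of AHRfl/fl and 60.7% of AHRmKO high Postn nuclei, Fosb in 3.6% and 40.2%, and Egr1 in 17% and 57.9%. Thinned to 2000 UMIs, 11 of 523 AHRfl/fl nuclei (2.1%) and 47 of 107 AHRmKO nuclei (43.9%) held 5 or more UMIs of the list. Across the clusters, Fos ranged from 0 to 34.2 CPM in the AHRfl/fl library and from 136 to 832 CPM in the AHRmKO library, with no overlap. Without nuclei of over 10000 UMIs, 13 of 15 tested genes were 2-fold higher, against 8.2% of all genes, with a median of 2.18.

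Early response genes were higher in other nuclei of the AHRmKO library as well. In low Postn nuclei the list's median log2 ratio was 2.54, with Fosb at 5.93 and Fos at 4.82, and 3.2% and 58.4% of them held 5 or more UMIs of the list at 2000 UMIs. In leukocyte nuclei those shares were 2.0% and 25.8%, with Fos at 25.1 and 276 CPM. In the barcodes of 200 to under 500 UMIs Fos stood at 33.6 and 158 CPM and Fosb at 6.45 and 66.1 CPM, while the list's median log2 ratio there was -0.03.

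**Figure D4:**
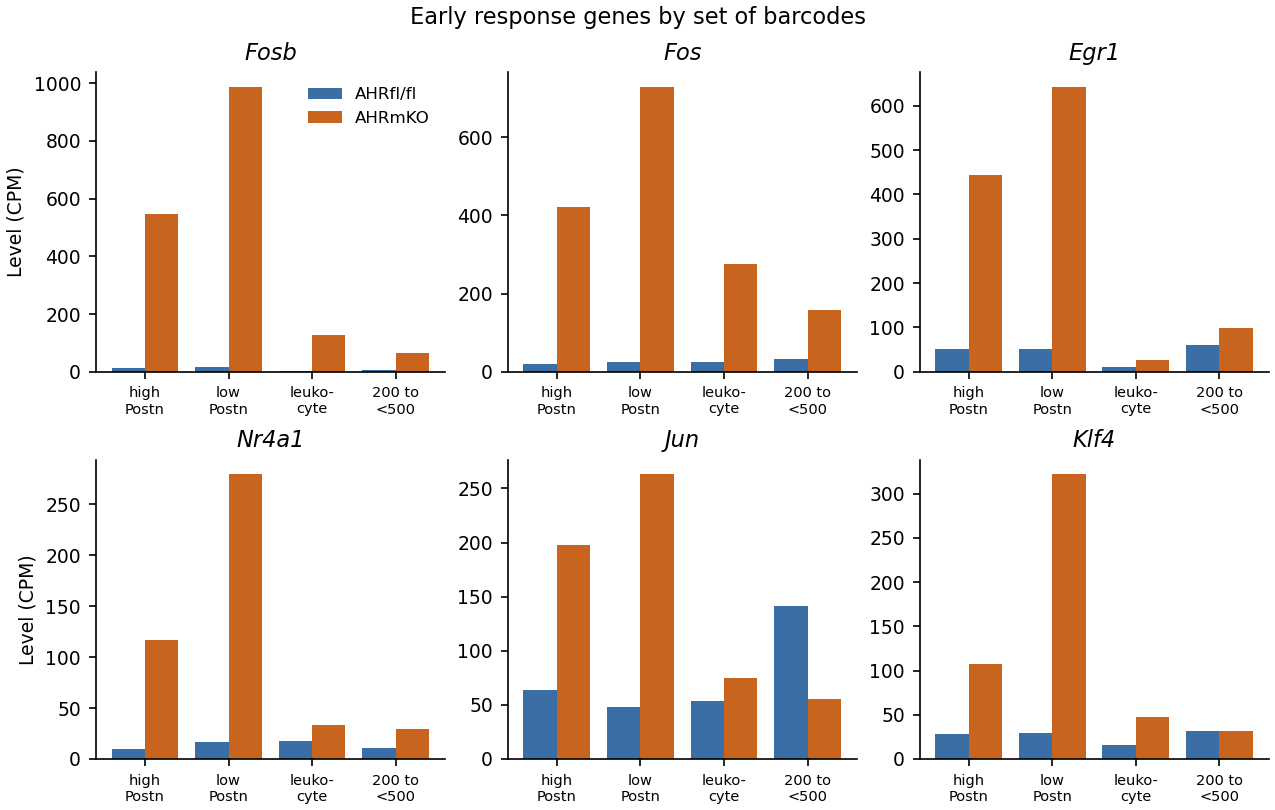
Levels (CPM) of Fosb, Fos, Egr1, Nr4a1, Jun and Klf4 in high Postn nuclei, low Postn nuclei, leukocyte nuclei and barcodes of 200 to under 500 UMIs of each library. In high Postn nuclei Fosb stood at 14.2 CPM (AHRfl/fl) and 548 CPM (AHRmKO), and the AHRmKO library was the higher for Fosb and Fos in each of these sets.

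Promoters of 4 early response genes are shown because these genes were higher together. Each is the 250 bases before the gene's start in RefSeq (GRCm38.p6), 5′ to 3′ on the gene's strand. Capitals mark the motif found there: TATAAA in Fos, the serum response element core known as the CArG box in Zfp36, and the cyclic AMP response element TGACGTCA in Dusp1. The Fosb window held none of the motifs searched.
Fosb, chr7:19310046-19310295, minus strand: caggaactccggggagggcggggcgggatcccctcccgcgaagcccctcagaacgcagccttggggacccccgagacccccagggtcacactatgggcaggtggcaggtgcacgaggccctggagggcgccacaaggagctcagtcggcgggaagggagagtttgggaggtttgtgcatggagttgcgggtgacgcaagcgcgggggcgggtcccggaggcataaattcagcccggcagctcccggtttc
Fos, chr12:85473640-85473889, plus strand: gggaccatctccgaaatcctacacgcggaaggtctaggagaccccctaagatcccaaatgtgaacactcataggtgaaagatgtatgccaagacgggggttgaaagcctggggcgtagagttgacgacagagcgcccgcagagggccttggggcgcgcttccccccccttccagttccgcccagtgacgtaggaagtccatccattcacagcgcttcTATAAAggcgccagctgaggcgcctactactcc
Zfp36, chr7:28379229-28379478, minus strand: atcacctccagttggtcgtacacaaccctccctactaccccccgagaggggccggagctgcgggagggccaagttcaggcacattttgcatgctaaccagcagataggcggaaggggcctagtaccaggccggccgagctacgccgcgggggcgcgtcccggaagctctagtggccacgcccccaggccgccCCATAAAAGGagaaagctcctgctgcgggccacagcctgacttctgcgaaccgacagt
Dusp1, chr17:26508473-26508722, minus strand: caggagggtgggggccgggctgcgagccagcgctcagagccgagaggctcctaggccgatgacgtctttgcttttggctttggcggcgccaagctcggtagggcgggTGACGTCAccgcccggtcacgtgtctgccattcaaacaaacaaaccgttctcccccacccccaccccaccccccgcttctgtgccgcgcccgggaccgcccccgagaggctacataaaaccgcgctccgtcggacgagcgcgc

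Of the 13 higher early response genes, 11 had a promoter in the table. On either strand, 2 of the 11 (Egr2 and Zfp36) held a CArG box, which 1.62% of 27025 genes held. TGACGTCA was found in 1 of 11 (Dusp1) against 1.77% of genes, TATAAA in 1 of 11 (Fos) against 14.3%, and an AP-1 motif (TGACTCA or TGAGTCA) in 0 of 11 against 5.16%. These matches describe letters in the windows and say nothing of binding.

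The other 6 of the 10 genes named as highest in the AHRmKO library follow. Socs3, the feedback inhibitor of cytokine signalling, stood at 9.76 and 78.0 CPM (log2 ratio 2.94). Tnfaip6, which links hyaluronan into the matrix, stood at 99.2 and 651 CPM (2.71), and Anxa1, an annexin with anti-inflammatory action, at 202 and 1160 CPM (2.52). The phosphodiesterase Pde9a stood at 15.9 and 78.0 CPM (2.26) and the imprinted gene Zim1 at 26.4 and 118 CPM (2.14, or 3.17 without nuclei of over 10000 UMIs). The aggrecanase Adamts4 stood at 22.8 and 130 CPM (2.49), with 75.5% of its AHRmKO UMIs from 5 nuclei.

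Of 35 matrix glycoprotein and elastic fibre genes tested, 13 were 2-fold or more lower in the AHRmKO library and 2 higher, against 11.1% and 4.2% of all genes, with a median log2 ratio of -0.73 in high Postn nuclei, -0.47 in low Postn nuclei and -1.61 in the barcodes of 200 to under 500 UMIs. Sparc, a collagen-binding matricellular protein, stood at 1148 and 273 CPM (-2.07, -2.27 to -1.88, and -2.04 with free RNA subtracted), with 1026 and 130 CPM in free RNA, and the small proteoglycan Bgn at 961 and 330 CPM (-1.54, -1.73 to -1.36). Lum, a proteoglycan of fibril assembly, stood at 147 and 16.5 CPM (-3.11, -4.04 to -2.38). Within the libraries it stood at 60.7 CPM in the lowest AHRfl/fl cluster and at 12.7 to 21.5 CPM over the AHRmKO clusters, which are not replicates. The fibulin Fbln2 (425 and 188 CPM, -1.17), Emilin1 (-1.70) and Cthrc1 (-1.17) were lower as well. Spp1, osteopontin, had a ratio of -4.43 (670 and 30.7 CPM; -3.78 without nuclei of over 10000 UMIs), and its level in these nuclei was below that in the barcodes of 200 to under 500 UMIs (4432 and 480 CPM). Of the other lower genes of this list, Ogn (123 CPM in the AHRfl/fl nuclei, 129.9 CPM in free RNA) and Tgfbi (36.6 and 215 CPM) also lay below their free RNA level. After free RNA was subtracted, 14 of the 34 genes still tested were lower and 2 higher, against 488 lower and 352 higher of all 7033 genes tested.

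Among named genes above their free RNA level and without a more abundant gene on the other strand, Tnc had the lowest ratio. It stood at 1225 CPM (3013 UMIs) in the AHRfl/fl and 86.2 CPM (73 UMIs) in the AHRmKO high Postn nuclei, a log2 ratio of -3.82 (-4.18 to -3.49). It was detected in 25.0% and 11.2% of them, and 5 nuclei held 86.3% of the AHRmKO UMIs. Its ratio was -1.77 in low Postn nuclei and -2.86 without nuclei of over 10000 UMIs. Without the 5 nuclei that held most Tnc UMIs in each library, it stood at 817 and 12.4 CPM. The AHRfl/fl cluster of 54 nuclei held 2690 of the 3013 UMIs. Outside that cluster Tnc stood at 148 CPM in the AHRfl/fl library, against 86.2 CPM in all AHRmKO high Postn nuclei. These values are not alike, since the first leaves out the nuclei that held most Tnc and the second keeps them. The cluster was drawn after the data had been seen, and its part in the ratio was not tested.

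Has1 and Has2, the hyaluronan synthases, were the matrix genes of this list that were 2-fold higher. They stood at 74.0 and 319 CPM (log2 ratio 2.10, 1.83 to 2.39) and at 78.9 and 183 CPM (1.21, 0.90 to 1.53), but at ratios of 0.99 and 0.71 without nuclei of over 10000 UMIs. Vcan, the proteoglycan that binds hyaluronan, stood at 625 and 1103 CPM (0.82, and 1.25 without those nuclei). Fbn1 was close in the 2 libraries, at 1952 and 2079 CPM (0.09, 0.01 to 0.17), and fibronectin, Fn1, stood at 1121 and 598 CPM (-0.91, -1.05 to -0.77).

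Of 21 collagen genes tested, 4 were 2-fold lower and 2 higher, with a median of -0.16, against 11.1% lower, 4.2% higher and a median of 0.06 for all genes. Col1a1 stood at 1638 CPM (1588 to 1690) and 588 CPM (538 to 642), a log2 ratio of -1.48, and -0.81 in low Postn nuclei. Col3a1 stood at 5185 and 2520 CPM (-1.04, or -0.86 at a mitochondrial limit of 2%), Col6a1 had a ratio of -1.03, and Col14a1, a collagen that binds fibrils, stood at 402 and 149 CPM (-1.43). Other chains were closer: Col1a2 stood at 2307 and 1645 CPM (-0.49), Col5a2 at 3342 and 2751 CPM (-0.28), Col8a1 at 1704 and 1785 CPM (0.07, or -0.54 without nuclei of over 10000 UMIs), and Col6a3 at 1184 and 1158 CPM (-0.03, -0.14 to 0.07). Col27a1, a fibrillar collagen of cartilage, was higher (204 and 434 CPM, 1.09). Col11a1 counted among the higher ones (1.77) only through 1 nucleus, which gave 46 of its 48 AHRmKO UMIs.

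The following counts are to be read against the 11.1% of all genes that were lower and the 4.2% that were higher, and those of the proteases and contractile genes lie near these shares. Among 19 genes of collagen processing and crosslinking, 4 were 2-fold lower and none higher, with a median of -0.23. The crosslinking enzyme gene Lox stood at 189 and 37.8 CPM (-2.31, -2.89 to -1.80) and its relative Loxl2 at 52.5 and 7.09 CPM (-2.80, -4.36 to -1.73). The collagen chaperone Serpinh1 (-2.08, 216 and 50.8 CPM) and Pcolce (-1.06) were the others, and Serpinh1 lay below its free RNA level of 363 CPM in the AHRfl/fl library. Of 25 proteases and inhibitors, Adamts4 and Mmp16 (1.01) were 2-fold higher and Timp2 (-2.63), Adamts6 (-1.03) and Plau (-1.02, or -0.42 without nuclei of over 10000 UMIs) lower. Of 18 contractile myofibroblast genes none was higher and 3 were lower, Acta2, Tpm1 and Tpm2, all below their free RNA levels. The activation genes Runx1 (1677 and 2021 CPM), Adam12 (1516 and 1831 CPM) and Fap (881 and 1289 CPM) did not reach 2-fold.

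**Figure D5:**
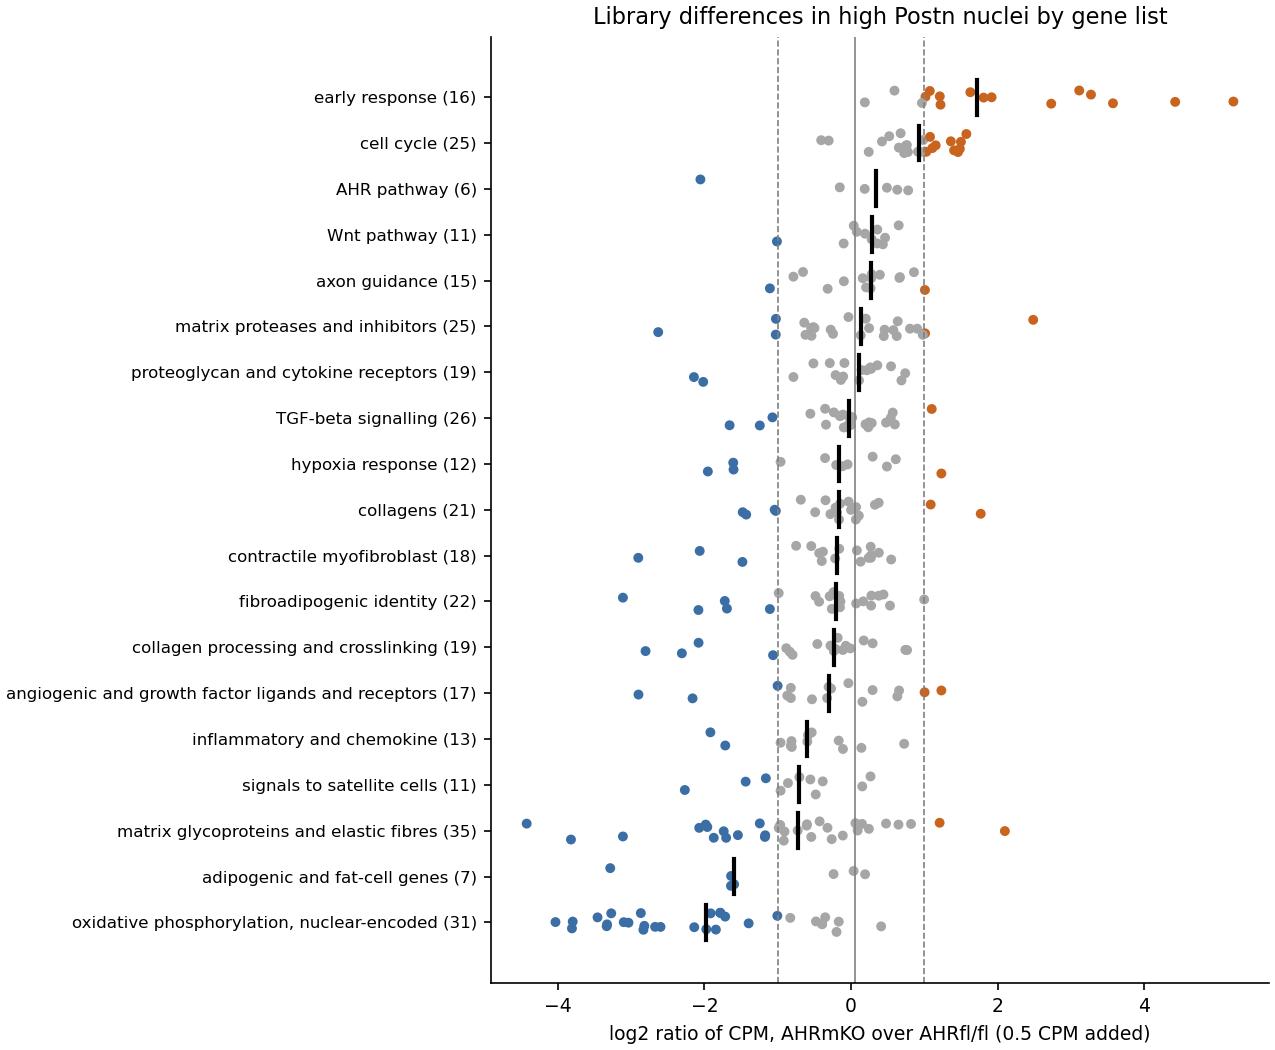
Log2 ratio of AHRmKO to AHRfl/fl in high Postn nuclei for each tested gene of the gene lists; points are genes (orange at 1 or above, blue at -1 or below), the black bar is the list's median, dashed lines mark 2-fold, the solid grey line marks the median of all genes (0.06), and the number tested is in parentheses. The early response list lies mostly above 1 (median 1.72), and the matrix glycoprotein list holds 13 of 35 genes at -1 or below, against 11.1% of all genes.

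Of 26 TGF-beta signalling genes, 3 were 2-fold lower and 1 higher, with a median of -0.03, shares close to those of all genes (11.1% and 4.2%). Without nuclei of over 10000 UMIs, 1 was lower and 1 higher. Nox4 stood at 2031 CPM (1975 to 2088) and 966 CPM (901 to 1035), a log2 ratio of -1.07 (-1.18 to -0.96) that was -1.20 in low Postn nuclei and -0.93 without nuclei of over 10000 UMIs. Ccn2 stood at 392 and 124 CPM (-1.66, -1.96 to -1.37), and Ltbp2 at 135 and 56.7 CPM (-1.24), or -0.50 without those nuclei. Outside the AHRfl/fl cluster of 54 nuclei, which held Ltbp2 at 685 CPM, it stood at 64.2 CPM in that library. Skil, a repressor of SMAD signalling, was higher (91.1 and 196 CPM, 1.10). Postn, which the rule selects, had a ratio of -1.0 among the chosen nuclei, or -0.71 without the deep nuclei.

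Signals to satellite cells and vessels were tested as lists, to be read against 11.1% of all genes lower and 4.2% higher. Of 11 tested genes of the first kind, the Wnt antagonists Sfrp1 (74.4 and 27.2 CPM, -1.44) and Sfrp2 (275 and 56.7 CPM, -2.27, or -1.65 without nuclei of over 10000 UMIs) and Bmp6 (-1.16) were 2-fold lower and none was higher. Igf1 stood at 144 and 161 CPM (0.15, -0.14 to 0.44) and Fgf7 at 159 and 191 CPM (0.27, -0.01 to 0.54), both within counting error. Of 17 angiogenic and growth factor genes, 3 were 2-fold lower and 2 higher. Of these, Vegfa (35.4 and 83.9 CPM, 1.23, 0.77 to 1.71) and Pdgfrb (287 and 577 CPM, 1.0) were higher, Vegfa by 0.88 with at least 4 Postn UMIs and Pdgfrb at the very limit of 2-fold, which it missed under 6 of the alternatives. Angpt2, an antagonist of the Tie2 receptor, stood at 56.1 and 7.09 CPM (-2.90, -4.46 to -1.83), from 138 and 6 UMIs, and its reads cannot be told with certainty from those of Mcph1, which overlaps it on the other strand. Fgfr2, a fibroblast growth factor receptor, stood at 340 and 75.6 CPM (-2.16, -2.56 to -1.80), was detected in 72.5% and 37.4% of nuclei, and ranged from 276 to 389 CPM over the AHRfl/fl clusters and from 41.9 to 132 CPM over the AHRmKO clusters. Angptl2 had a ratio of -1.0. Among 15 axon guidance genes, the semaphorin receptor Nrp1 was higher (696 and 1401 CPM, 1.01, but 0.55 without nuclei of over 10000 UMIs) and its ligand Sema3a lower (-1.11), while Slit3 had a ratio of 0.28.

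Of 13 inflammatory and chemokine genes, Ccl2, the monocyte chemoattractant (99.6 and 26.0 CPM, -1.92), and the complement gene C3 (176 and 53.2 CPM, -1.71) were 2-fold lower and none was higher, with a median of -0.60. A count of 2 of 13 is near the 11.1% of all genes that were lower. Thbs4 (261 and 57.9 CPM, -2.16), Ddah1 (116 and 17.7 CPM, -2.68), Cfb (141 and 23.6 CPM, -2.55), Cntnap2 (118 and 24.8 CPM, -2.23), Ly6c1 (-2.16) and Ly6a (-2.08) were, with Tnc, Lum, Loxl2, Lox, Sfrp2 and Fgfr2, the 12 lowest genes of at least 50 CPM in the AHRfl/fl nuclei, above their AHRfl/fl free RNA level and without a more abundant gene on the other strand. Genes such as Timp2 (266 CPM, free RNA 1062 CPM) lay below their free RNA level and were left out, and so was Angpt2, which overlaps Mcph1 on the other strand. This last group was chosen after its values were seen. The rule for the 10 lowest genes named Insyn2a, Egfros, Far1os, Pard3bos1, Fam227b, Lrrc4, Lysmd4, Kcnrg and Sox5os4 beside Tnc. All 9 overlap a gene transcribed from the other strand that held more UMIs, against 7.37% of genes tested, so their reads cannot be assigned with certainty. Of all genes that were 2-fold lower, 20.3% had such a partner, and of those higher 4.19%.

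The lists of this paragraph are to be read against 11.1% of all genes lower and 4.2% higher. Counts such as 1 of 11 and 2 of 19 lie near those shares. The lower counts of the identity list (5 of 22) and of the hypoxia list (3 of 12) lie above 11.1%. Of 11 Wnt pathway genes, 1 was lower (Dkk2, -1.01) and none higher, with a median of 0.28. Of 19 proteoglycan and cytokine receptor genes, 2 were lower and none higher, with a median of 0.11. Of 22 fibroadipogenic identity genes 5 were lower (Lum, Ly6a, Pcsk6, Mgst1 and Ptgfr) and none higher, with a median of -0.20. After free RNA was subtracted, 6 of these 22 were lower. In the AHR pathway list, Cyp1b1, a target of the receptor, stood at 120 and 108 CPM (-0.15, -0.51 to 0.19), Tiparp at 61.0 and 105 CPM (0.78, 0.39 to 1.17) and the partner gene Arnt at 226 and 258 CPM (0.19, -0.04 to 0.42). The chaperone gene Hsp90ab1 (-2.05) was the 1 of 6 tested that passed 2-fold, and it also differed in the barcodes of 200 to under 500 UMIs (1600 and 175 CPM). Of 12 hypoxia response genes, 1 was higher (Vegfa) and 3 lower (Pgk1, Eno1 and Hk2), with a median of -0.16. In the AHRfl/fl nuclei Pgk1 (65.5 CPM) and Eno1 (51.2 CPM) lay below their free RNA levels (392 and 295 CPM). Hk2 (83.8 CPM) lay above its own (29.1 CPM). With free RNA subtracted, 2 of the 10 hypoxia genes still tested were lower and 2 higher, with a median of 0.196.

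Some lists moved with free RNA or with a few nuclei. Of all genes, 11.1% were lower and 4.2% higher, or 11.5% and 8.2% without nuclei of over 10000 UMIs. After free RNA was subtracted, 488 were lower and 352 higher of 7033 genes. Of 31 nuclear-encoded oxidative phosphorylation genes, 23 were 2-fold lower, with a median of -1.97, against -3.01 in the barcodes of 200 to under 500 UMIs and -0.09 over the 12 genes that still reached 20 CPM after free RNA was subtracted, of which 1 was lower and 1 higher. Of 25 cell cycle genes, 10 were 2-fold higher (median 0.93), Kif11 (50.8 and 152 CPM, 1.57) and Diaph3 (184 and 507 CPM, 1.46) among them. Without nuclei of over 10000 UMIs, 1 of 23 was higher and 1 lower, with a median of 0.31, Kif11 at 0.70 and Diaph3 at -0.33. Notch3 (114 and 261 CPM, 1.19), which is also a marker of pericytes or smooth muscle, was higher, and had a ratio of 0.99 without those deep nuclei. Of 7 adipogenic and fat-cell genes, 4 were 2-fold lower, Pparg, Fabp4, Cd36 and Acsl1, with a median of -1.59 against 0.28 in low Postn nuclei. When nuclei of over 10000 UMIs were left out, 2 of the 7 were lower and 1 higher, with a median of -0.24. Pparg, the nuclear receptor that drives fat-cell formation, stood at 86.6 and 28.4 CPM (-1.59, -2.28 to -1.0), or -0.24 without nuclei of over 10000 UMIs. The AHRfl/fl cluster of 29 nuclei held it at 875 CPM, and outside that cluster it stood between 12.4 and 121 CPM in that library. Of 11 adult myofibre markers tested 10 were 2-fold lower, of 9 macrophage or monocyte markers 8, and of 8 differentiating myocyte markers 7, and in the barcodes of 200 to under 500 UMIs the summed levels of these lists were lower in the AHRmKO library as well (12567 and 3193 CPM, 6380 and 1635 CPM, and 8229 and 1439 CPM). After free RNA was subtracted, 2 macrophage or monocyte markers (1 of them lower, median -1.99) and 1 differentiating myocyte marker (0.03) still reached 20 CPM. The subtraction was scaled on the adult myofibre markers, so it removes that list by construction.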

How the data were processed

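Nuclear RNA of 2 libraries was measured as UMI counts per gene and barcode. The authors deposited raw counts for all barcodes, not normalised. Cell Ranger 7.0.1 and mm10 are named in the submitters' processing notes, and per the file headers the matrices follow a Cell Ranger format of an earlier version. Annotation, use of intronic reads and use of strand are not given in the sources used here. Both list 32285 genes.

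Nuclei were chosen as stated in the report, in Python 3.11.15 with numpy 2.4.6, scipy 1.17.1, pandas 2.3.3, scanpy 1.11.5 and matplotlib 3.10.9. Counts were summed per library and divided by their total (CPM). Log2 ratios had 0.5 CPM added. With 1 library per group there was no test: a gene was called at 2-fold among those with a mean of at least 20 CPM. Intervals (95%) are exact Poisson for levels, exact conditional binomial for ratios and Clopper-Pearson for shares, and cover counting error only. The calling code was also run on simulated Poisson sums. These hold no spread between nuclei, so that run cannot check the calls or intervals given here. Doublets were scored with Scrublet in each library and left out only in an alternative. High Postn nuclei were clustered with the Leiden method in each library.

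Named genes were Pdgfra, Postn, Nox4, Slit3 and Ahr, the 10 highest and 10 lowest between libraries, the 15 highest and 10 lowest between high and low Postn, the 15 highest against nuclei outside the fibroadipogenic group, all with at least 50 CPM and 30 UMIs and above their free RNA level, and from each list the 4 most abundant genes or those past 2-fold. Members, gene lists and rules were chosen with earlier results of these data known. Alternatives were doublet, depth, mitochondrial, Postn and expression limits, thinning to 2000 UMIs, free RNA subtraction, and, after the data were seen, leaving out nuclei of over 10000 UMIs or genes with an opposite-strand partner. Some genes that enter the counts are not reported here.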

Additional observations from a re-analysis of the deposited data

Results flagged for a closer look

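For 4 genes named in the report, the AHRmKO to AHRfl/fl log2 ratio had opposite signs in high and low Postn nuclei, with both counting intervals clear of 0 and at least 1 of the ratios past 2-fold. Ratios of opposite sign that lacked either condition are not listed. Only genes named by rule and genes of the lists were searched, and the share of all genes that meet these conditions was not computed. The difference between the ratios was not tested, since there was 1 library per genotype. The intervals take no account of UMIs that lie in few nuclei. Of the 146 Car3 UMIs of AHRfl/fl high Postn nuclei, 109 lay in the cluster of 29 nuclei, in 13.8% of them. That cluster also held 128 Pparg UMIs, in 37.9% of its nuclei. The AHRmKO high Postn nuclei held 5 Car3 UMIs. Pparg had a ratio of -1.59 in high Postn (-0.24 without nuclei of over 10000 UMIs) and 0.88 in low Postn nuclei. Car3, a carbonic anhydrase of fat cells and slow fibres, had a ratio of -3.22 in high Postn (-2.04 without those nuclei) and 0.58 in low Postn nuclei. Plau, the urokinase-type plasminogen activator, had a ratio of -1.02 in high Postn (-0.42) and 0.91 in low Postn nuclei. Kif26b, a kinesin-related gene, had a ratio of 0.52 in high Postn (0.76) and -1.19 in low Postn nuclei.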

How the results depend on the processing

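No paired analysis was possible because there was 1 library per group, and for the same reason no replicate could be left out. The count of genes 2-fold higher in the AHRmKO library (310) was 684 with nuclei thinned to 2000 UMIs, 1626 with no limit on low values and 614 without nuclei of over 10000 UMIs. The count of genes 2-fold lower (816) was 4939 with no limit on low values and 488 with free RNA subtracted. Between high and low Postn nuclei, the 10 higher and 17 lower genes were 208 and 470 with no limit on low values, and 21 and 27 with at least 4 Postn UMIs. The share of high Postn nuclei in the AHRfl/fl library was 36.8% when thinned, 34.0% with at least 4 and 70.6% with at least 1 Postn UMI. In the AHRmKO library it was 14.9%, 16.0% and 41.5%, and 37.0% with at least 3000 UMIs per nucleus and 37.5% with at most 2% mitochondrial UMIs. Of 116 values past 2-fold of single genes, 72 stayed past it under every alternative run. Leaving aside the settings that cannot move the ratio of a single gene (no limit on low values, and genes with an opposite-strand partner left out), of their 1160 values under the alternatives, 1155 kept their sign and 1075 stayed past 2-fold. Without nuclei of over 10000 UMIs, the AHRmKO to AHRfl/fl ratio reversed for Col11a1 (-5.13) and Diaph3 (-0.33), and the AHRmKO high to low Postn ratio reversed for Thrb (0.50) and Diaph3 (-0.0057). Thinned, the AHRmKO high to low Postn ratio of Cenpe was -0.41, and with free RNA subtracted the median of the differentiating myocyte markers was 0.0309, from the 1 marker still tested. Apart from the smaller number of nuclei or UMIs each setting leaves, the cause was not tested. The 107 AHRmKO nuclei limit the precision of low genes.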
